A study of Homo sapiens with 12 samples.

Results

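The clade B serpins are a family of protease inhibitors that lack a classical secretion signal and act largely inside the cell. Of the 11529 genes in the expression table, 7 belong to this family: SERPINB1, SERPINB2, SERPINB5, SERPINB6, SERPINB7, SERPINB8 and SERPINB9. SERPINB7 was chosen by its measured increase after loss of SMARCA4, among the largest in MDA-MB-468 cells, and the other 6 were taken by family name. The increase of SERPINB7 in MDA-MB-468 cells, and every value that uses the same samples, is therefore given as a description without a p-value. The other 6 human clade B genes, SERPINB3, SERPINB4, SERPINB10, SERPINB11, SERPINB12 and SERPINB13, were not analysed here.

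The samples were 12 RNA-seq libraries of MDA-MB-231 and MDA-MB-468, both human lines of triple-negative breast cancer. Each line was represented by 3 wild type control samples and 3 SMARCA4 knockout (KO) samples. SMARCA4 encodes an ATPase of the SWI/SNF chromatin remodeling complex. The KO cells were polyclonal pools, made by lentiviral CRISPR/Cas9 with a guide against exon 4 of SMARCA4 and kept in puromycin for selection, so cells with an intact allele could remain. The labels call the control cells wild type, while the study describes both parental cells and cells given a nontargeting vector, so which of these were sequenced is not settled here. The labels do not state that samples of a group came from separate cultures, so p-values measure only the spread between these samples, which may be technical.

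Levels are given as FPKM (fragments scaled to transcript length and to the mapped fragments of the sample) or on the scale of the table, log2(FPKM + 1), on which differences of weakly expressed genes are understated. SMARCA4 itself had 96.9 to 101 FPKM in MDA-MB-468 control and 39.7 to 47.7 FPKM in MDA-MB-468 KO samples. In MDA-MB-231 cells it had 67.0 to 71.5 FPKM in control and 21 to 23.9 FPKM in KO samples. Transcript was thus lower in all KO samples and present in each. Samples of one group correlated across genes with Pearson's r of 0.989 to 0.995. Marker genes separated the lines as an epithelial and a mesenchymal-like line: all 6 epithelial markers, EPCAM and CDH1 among them, were higher in MDA-MB-468 controls, and of 4 mesenchymal-like markers VIM, ZEB1 and FN1 were higher in MDA-MB-231 controls and CD44 was higher in MDA-MB-468 controls. Of 13 leukocyte markers 2 were measured, CD14 and CORO1A, and their summed level was 56.1 to 62.8 FPKM in MDA-MB-468 control, 33.7 to 75.6 FPKM in MDA-MB-468 KO, 1.73 to 2.89 FPKM in MDA-MB-231 control and 4.19 to 6.73 FPKM in MDA-MB-231 KO samples. None of the 7 fibroblast markers was among the genes analysed. The part of the marker genes in the serpin values was not tested. In bulk RNA, fewer cells of a kind and less RNA per cell cannot be told apart.

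Serpins trap their target protease by offering a reactive loop as bait, and the cleaved serpin then changes shape and disables the enzyme that is bound to it. Clade B members protect the cells that make them from proteases that leak or are delivered into the cytosol, and several are typical of stratified epithelium such as epidermis. In mammary tissue SERPINB5, also called maspin, marks myoepithelial cells and is best known as a gene whose expression is lost in invasive carcinoma.

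The human genes lie in 2 clusters. On the hg19 (GRCh37) assembly, with GENCODE gene models, the cluster at 18q21 spans chr18:61144191-61687013 and holds 10 clade B genes, of which SERPINB5, SERPINB7, SERPINB2 and SERPINB8, in this order, were measured. SERPINB7 occupies chr18:61420169-61472610 on the plus strand, and its reference transcript has 8 exons. The cluster at 6p25 spans chr6:2832566-2972399 on the minus strand, and all 3 of its genes, SERPINB1, SERPINB9 and SERPINB6, were measured.

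The bases upstream of the reference (MANE Select) start sites are shown for the measured 18q21 genes and for SERPINB9, because these genes differed by cluster and by cell line in the values below and their upstream sequences differ in CG content and motifs. Each is written 5′ to 3′ on the strand of its gene. Capitals mark CG dinucleotides, matches to TGANTCA (a looser pattern than the letters typically bound by AP-1 type factors) and matches to TATAAA, the last 2 on either strand. The SERPINB7 run is chr18:61442402-61442608 (plus strand), the SERPINB2 run chr18:61554689-61554938 (plus strand), the SERPINB5 run chr18:61143941-61144190 (plus strand), the SERPINB8 run chr18:61637065-61637262 (plus strand) and the SERPINB9 run chr6:2903544-2903793 (minus strand). The runs of SERPINB7 and SERPINB8 stop 43 and 52 bases before the start site, where an exon of another coding transcript of the gene begins.
SERPINB7: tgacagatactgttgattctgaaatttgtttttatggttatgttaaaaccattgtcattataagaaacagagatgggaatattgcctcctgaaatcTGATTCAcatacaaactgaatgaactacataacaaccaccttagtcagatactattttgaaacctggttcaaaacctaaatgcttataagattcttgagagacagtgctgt
SERPINB2: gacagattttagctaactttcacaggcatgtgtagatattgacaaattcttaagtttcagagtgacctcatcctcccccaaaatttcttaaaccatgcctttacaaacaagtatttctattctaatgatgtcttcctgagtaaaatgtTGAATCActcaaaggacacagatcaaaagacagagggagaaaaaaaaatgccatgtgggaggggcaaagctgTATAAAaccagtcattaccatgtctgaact
SERPINB5: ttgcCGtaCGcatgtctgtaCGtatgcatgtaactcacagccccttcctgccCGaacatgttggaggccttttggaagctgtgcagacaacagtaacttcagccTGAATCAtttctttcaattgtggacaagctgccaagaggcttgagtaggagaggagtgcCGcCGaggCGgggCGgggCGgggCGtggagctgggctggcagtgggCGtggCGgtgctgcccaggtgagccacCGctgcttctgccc
SERPINB8: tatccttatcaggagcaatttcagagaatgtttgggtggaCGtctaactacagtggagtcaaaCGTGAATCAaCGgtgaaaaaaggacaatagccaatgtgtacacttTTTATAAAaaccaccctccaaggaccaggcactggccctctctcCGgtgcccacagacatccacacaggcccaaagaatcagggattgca
SERPINB9: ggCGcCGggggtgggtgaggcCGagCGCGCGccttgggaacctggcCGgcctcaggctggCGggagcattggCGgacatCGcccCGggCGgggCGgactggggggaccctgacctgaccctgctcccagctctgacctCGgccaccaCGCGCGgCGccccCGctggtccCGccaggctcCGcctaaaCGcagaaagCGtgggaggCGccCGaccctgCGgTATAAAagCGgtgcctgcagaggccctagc

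In the 250 bases before the start, the SERPINB7 and SERPINB2 promoters held 0 CG dinucleotides, against a median of 18 over 18921 promoters of the same length. SERPINB8 had 7, SERPINB5 13, SERPINB1 21, SERPINB6 26 and SERPINB9 27. TGANTCA was present in 4 of 4 promoters of the measured 18q21 genes and in 0 of 3 at 6p25, while 4.7% of all promoters held it. Its first base lay 154 and 39 bases before the start of SERPINB7, 102 bases before SERPINB2, 146 bases before SERPINB5, and 185 and 28 bases before SERPINB8. The nearer match in SERPINB7 and in SERPINB8 is in the exon of the other transcript and reads TGAGTCA, a form of TGANTCA that 3.1% of promoters held. TATAAA was found in SERPINB2, SERPINB8 and SERPINB9 and in 9.1% of all promoters. GGGCGG was found in SERPINB1, SERPINB5, SERPINB6 and SERPINB9 and in 60.1% of all promoters. These matches describe letters in 1 window per gene and were chosen with the expression values known. Binding was not measured, and SERPINB7 has other annotated start sites.

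SERPINB7 had the largest difference of the 7 members in MDA-MB-468 cells. SERPINB7, also called megsin, is a serpin of epidermis and of the kidney mesangium whose loss causes a thickening disease of the palms and soles. In MDA-MB-468 control samples 1 to 3 its FPKM was 4.02, 5.99 and 7.82, and in KO samples 1 to 3 it was 16.1, 28 and 27.9. All KO samples lay above all controls, and sample 1 was the lowest of each group. Control cells had a mean of 5.94 ± 1.9 FPKM (SD, n = 3). KO cells had 24.0 ± 6.8 FPKM (SD, n = 3), which is 404% of the control level. On the log2 scale the difference was 1.85 with a standard error of 0.29, and it lay between 1.63 and 2.10 in the 9 alternative analyses that could move it. In MDA-MB-231 control samples 1 to 3 the FPKM of SERPINB7 was 1.16, 0.60 and 0.74, and in KO samples it was 0.33, 0.31 and 0.35. Here all KO samples lay below all controls, and their mean was 39.6% of the control mean. The log2 difference of -0.45 (SE 0.11, 95% interval -0.73 to -0.17) did not pass the test across all genes (limma, Benjamini-Hochberg adjusted p = 0.060). With a pseudocount of 0.1 in place of 1 it was -1.07 with limma adjusted p = 0.044, and after quantile normalization it was -0.62 with limma adjusted p = 0.0499, both past the threshold of 0.05. The order of the 4 group means was MDA-MB-468 KO, MDA-MB-468 control, MDA-MB-231 control, MDA-MB-231 KO, and no neighbours in this order overlapped. The difference between the KO changes of the lines was 2.30 (SE 0.31) on the log2 scale. It is a description because it contains the contrast that chose the gene.

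**Figure D1:**
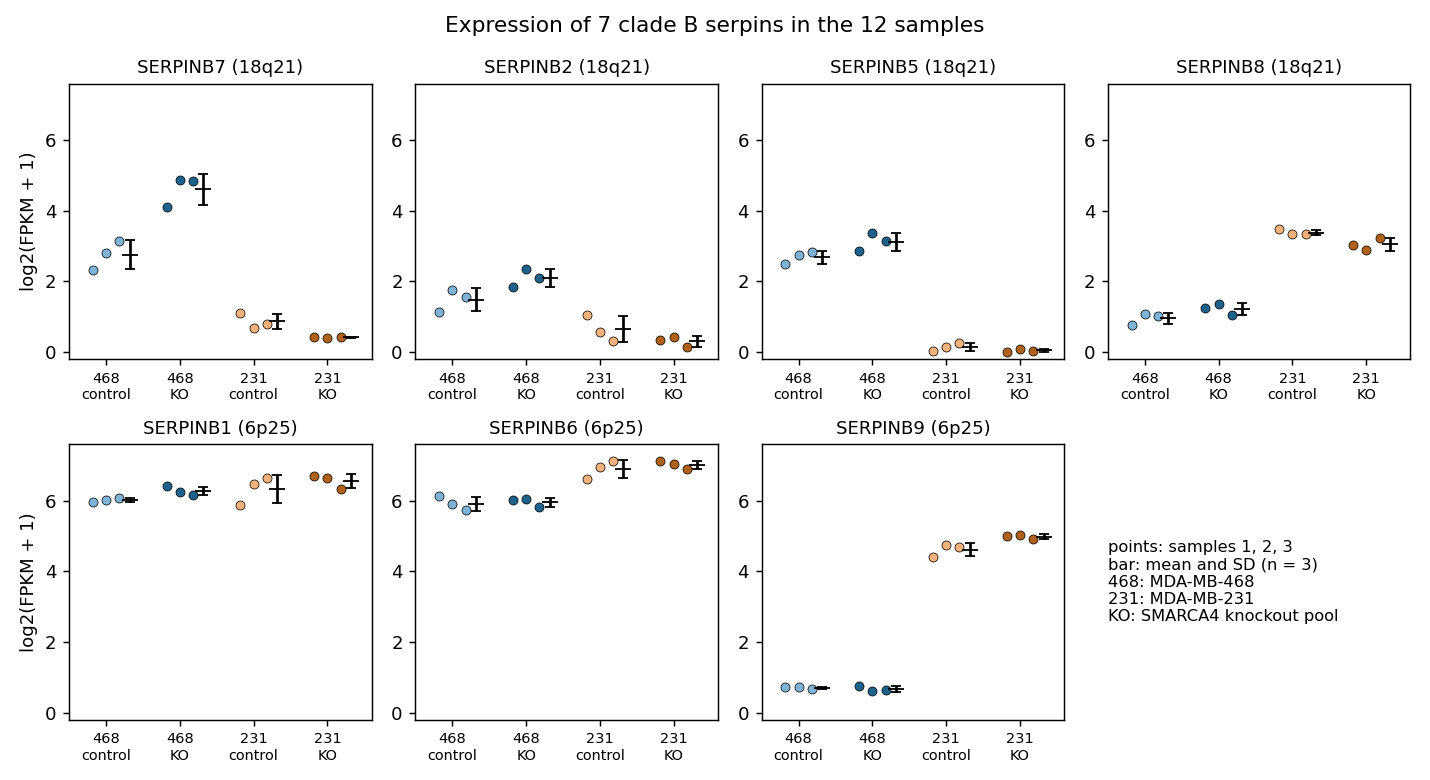
Values of the 7 members on the log2(FPKM + 1) scale in each of the 12 samples, with the mean and SD of each group (n = 3) beside the points. SERPINB7 stands at 4.10 to 4.86 in the MDA-MB-468 KO samples and at 0.39 to 0.43 in the MDA-MB-231 KO samples, and SERPINB9 is above 4 in every MDA-MB-231 sample and below 1 in every MDA-MB-468 sample.

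SERPINB2, known as plasminogen activator inhibitor 2, inhibits the urokinase PLAU. Its FPKM was 1.17, 2.39 and 1.97 in MDA-MB-468 control samples 1 to 3 and 2.56, 4.05 and 3.27 in KO samples 1 to 3. The KO samples were all above the controls, by a narrow gap between 2.39 and 2.56. On the log2 scale they were higher by 0.60 (SE 0.20) with limma adjusted p = 0.15. Under the replicate block, which pairs equally numbered samples, limma adjusted p was 0.047 and the gene passed. In MDA-MB-231 cells the FPKM was 1.05, 0.48 and 0.25 in control and 0.27, 0.35 and 0.10 in KO samples, and the groups overlapped. Their log2 difference was -0.34 (SE 0.19) with limma adjusted p = 0.29. The 2 changes differed by 0.94 (SE 0.28) with limma adjusted p = 0.046. This call was lost when any 1 of 9 of the 12 samples was left out and was kept without MDA-MB-468 control sample 2, MDA-MB-468 KO sample 1 or MDA-MB-231 control sample 3. It was also lost with a pseudocount of 0.1 (limma adjusted p = 0.084), after quantile normalization (limma adjusted p = 0.051) and after 75th percentile scaling (limma adjusted p = 0.052). Over 18 alternatives the difference stayed between 0.74 and 1.77 and the limma adjusted p between 0.013 and 0.11. The group order was that of SERPINB7, but the MDA-MB-231 groups did not differ beyond their spread.

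SERPINB5, or maspin, has a serpin fold without a known protease target. Its FPKM was 4.59, 5.72 and 6.12 in MDA-MB-468 control samples and 6.28, 9.25 and 7.76 in KO samples. Every KO sample was above every control. This log2 difference was 0.43 (SE 0.15) with limma adjusted p = 0.16. In MDA-MB-231 cells SERPINB5 was near 0, with 0.03, 0.11 and 0.20 FPKM in control and 0.01, 0.06 and 0.03 FPKM in KO samples. The groups overlapped, and the log2 difference was -0.11 (SE 0.07, limma adjusted p = 0.34). The changes in the lines differed by 0.53 (SE 0.17) with limma adjusted p = 0.058. This value passed under the replicate block within each line (limma adjusted p = 0.027), without MDA-MB-468 control sample 3 (limma adjusted p = 0.049) and without MDA-MB-468 KO sample 1 (limma adjusted p = 0.015). Both MDA-MB-468 groups stood above both MDA-MB-231 groups, and only the MDA-MB-231 neighbours overlapped.

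SERPINB8 inhibits the proprotein convertase furin. It was the 18q21 member that MDA-MB-231 cells expressed most. Its FPKM was 0.71, 1.1 and 1.01 in MDA-MB-468 control and 1.36, 1.58 and 1.06 in KO samples, and the groups overlapped. In MDA-MB-231 cells it was 10.1, 9.12 and 9.05 in control and 7.09, 6.39 and 8.44 in KO samples, with every KO sample below every control. KO and control means of SERPINB8 differed by 0.27 on the log2 scale (SE 0.12, limma adjusted p = 0.22) in the MDA-MB-468 line. The value for MDA-MB-231 cells was -0.33 (SE 0.10, limma adjusted p = 0.089), and neither passed. These changes differed by 0.60 (SE 0.16) with limma adjusted p = 0.029. The call was lost after quantile normalization (limma adjusted p = 0.076) and without any 1 of 5 samples: MDA-MB-468 control 1, MDA-MB-468 KO 2, MDA-MB-231 control 1, MDA-MB-231 KO 1 and MDA-MB-231 KO 2. SERPINB8 overlaps HMSD, a gene on the same strand, so reads could be split between them. HMSD was at 6.39 to 10.9 FPKM in the MDA-MB-231 samples. Of the MDA-MB-468 samples, control 3 had 13.2 FPKM, KO 1 had 0.21 FPKM and the other 4 were listed at 0. The libraries were made with a stranded kit, but whether counting used strand is not given, and an antisense transcript also overlaps SERPINB8. SERPINB2 and SERPINB5 overlap other annotated genes on their own strand too, and the part of shared reads was not tested.

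**Figure D2:**
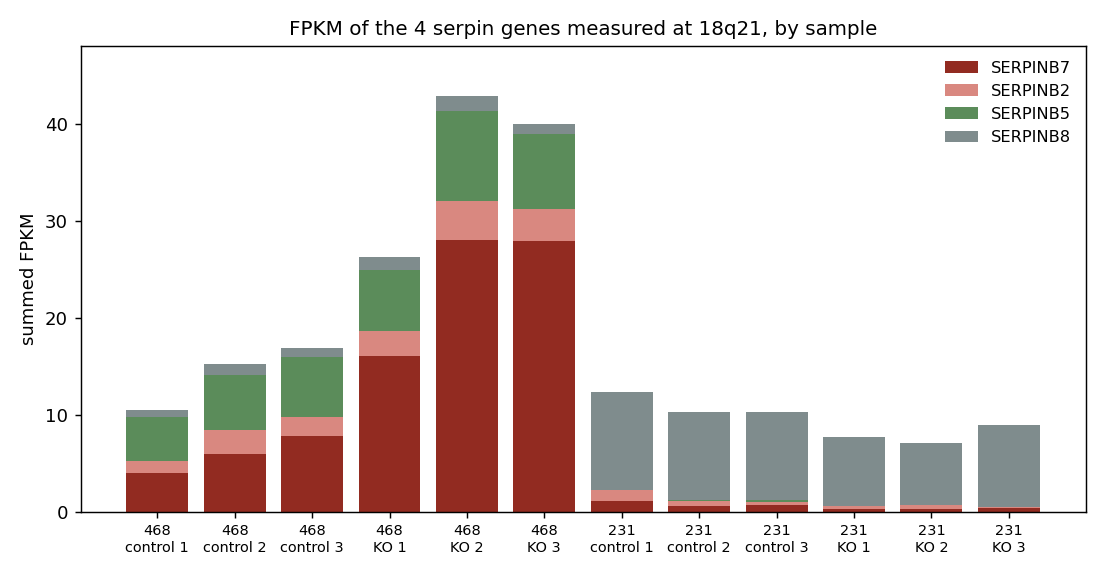
Summed FPKM of the 4 measured 18q21 members in each sample, with 1 colour per gene and bars from 0. SERPINB7 makes up most of each MDA-MB-468 KO bar, and SERPINB8 most of each MDA-MB-231 bar.

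Summed over the 4 genes, the 18q21 level was 14.2 ± 3.3 FPKM in MDA-MB-468 control and 36.4 ± 8.8 FPKM in MDA-MB-468 KO cells (SD, n = 3 each). MDA-MB-231 cells had 10.9 ± 1.2 FPKM in control and 7.91 ± 0.92 FPKM in KO samples (SD, n = 3 each). SERPINB7 provided 38.3% to 46.2% of this sum in MDA-MB-468 controls and 61.3% to 69.8% in the KO samples. SERPINB5 provided 36.2% to 43.8% and then 19.4% to 23.9%, although its own mean went from 5.48 to 7.76 FPKM. SERPINB7 was chosen by its increase in MDA-MB-468 cells. The rise of the sum and the shift in shares there were thus partly fixed by that choice. In MDA-MB-231 cells SERPINB8 provided 81.8% to 88.5% of the sum in control and 89.9% to 94.6% in KO samples. The control sums of the lines overlapped, at 10.5 to 16.9 FPKM in MDA-MB-468 and 10.2 to 12.3 FPKM in MDA-MB-231 samples, although different genes of the cluster made them up.

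SERPINB1 and SERPINB6 of the 6p25 cluster were the most abundant members in all 4 groups. SERPINB1 inhibits neutrophil elastase and related enzymes. Its FPKM was 61.8 to 66.2 in MDA-MB-468 control and 71.4 to 84.3 in KO samples, and these ranges did not overlap. In MDA-MB-231 cells it was 58.0 to 98.9 in control and 79.2 to 104 in KO samples, and these overlapped. Log2 differences were 0.25 (SE 0.07, limma adjusted p = 0.11) for the MDA-MB-468 line and 0.23 (SE 0.22, limma adjusted p = 0.52) for the MDA-MB-231 line. The changes differed by 0.02, with a 95% interval of -0.49 to 0.54.

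SERPINB6 inhibits cathepsin G and other trypsin-like enzymes. It had 52.0 to 69.1 FPKM in MDA-MB-468 control and 55.4 to 64.6 FPKM in KO samples. In MDA-MB-231 cells it had 96.7 to 138 FPKM in control and 118 to 139 FPKM in KO samples. Control and KO overlapped in both lines, with log2 differences of 0.04 (95% interval -0.26 to 0.34) and 0.12 (95% interval -0.24 to 0.47). The sign of either difference turned without 1 control sample, to -0.06 without MDA-MB-468 control sample 3 and to -0.03 without MDA-MB-231 control sample 1.

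SERPINB9 inhibits granzyme B, the death-inducing protease of cytotoxic lymphocytes. Its FPKM was 20.1 to 26.2 in MDA-MB-231 control and 29.1 to 31.9 in MDA-MB-231 KO samples, without overlap. In MDA-MB-468 cells it was 0.60 to 0.66 in control and 0.54 to 0.69 in KO samples, with overlap. KO and control means differed by 0.37 on the log2 scale (SE 0.11, limma adjusted p = 0.080) in MDA-MB-231 and -0.04 (SE 0.05, limma adjusted p = 0.71) in MDA-MB-468 cells. The changes differed by -0.40 (SE 0.13) with limma adjusted p = 0.053. This value passed in 4 of 18 alternatives: quantile normalization (limma adjusted p = 0.019), scaling to the 75th percentile (limma adjusted p = 0.035), and without MDA-MB-468 KO sample 1 (limma adjusted p = 0.045) or MDA-MB-231 control sample 2 (limma adjusted p = 0.034).

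The comparison of KO with control cells asked how the family responds to loss of SMARCA4 in each line. In MDA-MB-468 cells none of the 6 members other than SERPINB7 passed an adjusted p of 0.05 by limma with a log2 difference over 0.5, and 1.33% of all genes were called higher. Among these 6, the unadjusted p was under 0.05 for 3, SERPINB1, SERPINB2 and SERPINB5, against 25.1% of all genes. Their median log2 difference was 0.26, against 0.02 over all genes. The KO samples of these 3 were all above the controls, which held for 17.5% of all genes. Those of 0 of the 6 were all below, which held for 13.5%. SERPINB7 is left out of this count because it was chosen for its increase. In MDA-MB-231 cells 0 of 7 members were called by limma, against 3.70% of all genes. The unadjusted p was under 0.05 for 3 of the 7, SERPINB7, SERPINB8 and SERPINB9, a share near the 31.2% of all genes. The groups did not overlap for SERPINB7 and SERPINB8, both lower in KO (19.4% of all genes), and for SERPINB9, higher in KO (16.6% of all genes). The difference between the lines was called for SERPINB2 and SERPINB8, and 14.7% of all genes were called in that test. At 18q21 the 3 members other than SERPINB7 had a positive log2 difference in MDA-MB-468 cells and a negative one in the other line, a pattern that 3229 of the 11529 genes had, and at 6p25 this held for 0 of 3. SERPINB7 had these signs too, but its sign in MDA-MB-468 cells was fixed by the choice of the gene. No test of the clusters as sets was made.

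**Figure D3:**
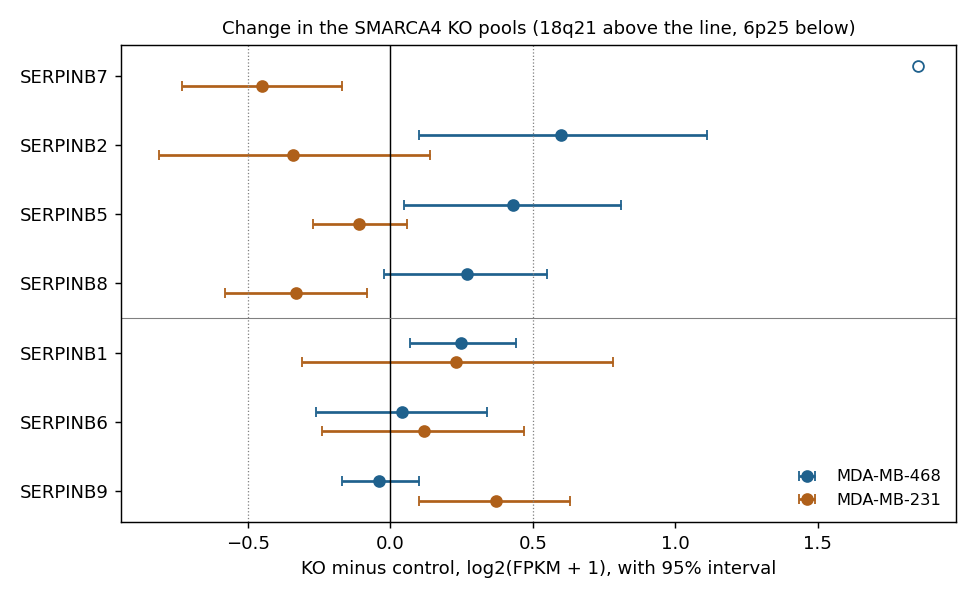
Difference between KO and control on the log2(FPKM + 1) scale for each member in both lines, with 95% intervals from limma and dotted lines at the limits of 0.5 and -0.5. The hollow point is SERPINB7 in MDA-MB-468 cells at 1.85, shown without an interval because it chose the gene.

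The control samples show where each member was expressed before the knockout. SERPINB5, SERPINB7 and SERPINB2 were higher in MDA-MB-468 and SERPINB9, SERPINB8 and SERPINB6 higher in MDA-MB-231 controls. The first 3 averaged under 1 FPKM in both MDA-MB-231 groups, and SERPINB9 in both MDA-MB-468 groups. SERPINB8 only ranged from 0.71 to 1.58 FPKM over the MDA-MB-468 samples. These 5 genes met the authors' filter, an average and an SD of at least 1 FPKM, only through the other line. Their line difference was thus partly fixed by the filter, and its limma p-values below are not an independent test. For SERPINB5 the log2 difference was 2.54 (SE 0.11, limma adjusted p = 2.2e-07), with mean FPKM of 5.48 for MDA-MB-468 and 0.113 for MDA-MB-231 cells. For SERPINB7 it was 1.90 (SE 0.20), with mean FPKM of 5.94 and 0.833. For SERPINB2 it was 0.84 (SE 0.21, limma adjusted p = 0.0067), and after quantile normalization it was 0.60 and no longer called (limma adjusted p = 0.055).

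SERPINB9 had the largest difference of the members on the log2(FPKM + 1) scale, at -3.91 (SE 0.10, limma adjusted p = 1.5e-08), from mean levels of 0.637 FPKM for MDA-MB-468 and 23.8 FPKM for MDA-MB-231 controls. As a ratio of mean FPKM, SERPINB5 differed more, by 48.3-fold against 37.3-fold for SERPINB9, but its MDA-MB-231 level was near 0. For SERPINB8 it was -2.43 (SE 0.10, limma adjusted p = 1.4e-07), with 0.940 and 9.41 FPKM. For SERPINB6 it was -0.98 (SE 0.15, limma adjusted p = 0.00045). SERPINB1 was not called, at -0.31 (SE 0.18, limma adjusted p = 0.14), and without MDA-MB-231 control sample 1 it was -0.53 and called (limma adjusted p = 0.00098). Of the 6 members other than SERPINB7, 2 were called higher in MDA-MB-468, against 32.7% of all genes, and 3 lower, against 31.4%. Each line is 1 cell line, so these values compare these lines and not subtypes. The authors kept only genes with an average and an SD of at least 1 FPKM, so a serpin with low or steady levels in all samples could not be in the table.

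No gene next to a cluster was called with the KO. At 18q21 the nearest measured gene before the cluster was KDSR, 109730 bases away, with log2 differences of -0.01 (limma adjusted p = 0.93) in MDA-MB-468 cells and 0.15 (limma adjusted p = 0.59) in MDA-MB-231 cells, the first of which turned to 0.03 without MDA-MB-468 KO sample 3. The nearest after it was TMX3, 4653912 bases away, with -0.19 (limma adjusted p = 0.20) and -0.12 (limma adjusted p = 0.56). At 6p25 WRNIP1 and NQO2 flank the cluster at 45380 and 15822 bases. WRNIP1 had log2 differences of 0.22 (limma adjusted p = 0.18) and -0.11 (limma adjusted p = 0.19), and NQO2 of -0.32 (limma adjusted p = 0.14) and 0.09 (limma adjusted p = 0.52). None of these 4 flanking genes, nor HMSD, was called in any of the 4 comparisons. Between the controls, KDSR and TMX3 were lower in MDA-MB-468, at -0.45 (limma adjusted p = 0.0085) and -0.41 (limma adjusted p = 0.00066). Only the limit of 0.5 kept these from being called.

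The proteases that clade B serpins inhibit were measured for 9 of 17 genes in a list. In MDA-MB-468 cells 1 rose in KO, PLAU, the target of SERPINB2, from 1.35 to 1.67 FPKM in control to 2.34 to 2.91 FPKM in KO samples (log2 difference 0.55, limma adjusted p = 0.034). The PLAU call was lost under the replicate block (limma adjusted p = 0.062) and without any 1 sample other than KO sample 1. In MDA-MB-231 cells 1 rose, CTSV, a lysosomal cysteine protease, from 1.40 to 2.07 FPKM to 4.83 to 5.64 FPKM (log2 difference 1.13, limma adjusted p = 0.0095), a call that was lost without MDA-MB-231 KO sample 2. None of the 9 was called lower in KO in either line. Of all 11529 genes, 153 were called higher and 94 lower in MDA-MB-468 KO, and 275 and 151 in MDA-MB-231 KO. FURIN, the target of SERPINB8, was at 5.43 to 6.82 FPKM in MDA-MB-468 and 32.5 to 38.0 FPKM in MDA-MB-231 controls, and its KO differences of 0.29 and 0.06 were not called. The changes of PLAU, CTSV and CTSL differed between the lines, by 0.74, -1.04 and -0.35 (limma adjusted p = 0.0021, 0.014 and 0.017). That test called 14.7% of all genes. Between the controls all 9 were called, 4 higher in MDA-MB-468, led by the epidermal kallikreins KLK5 (442 to 520 FPKM) and KLK8 (28.9 to 35.4 FPKM), and 5 higher in MDA-MB-231, led by the plasminogen activators PLAT (147 to 173 FPKM) and PLAU (229 to 252 FPKM). In MDA-MB-231 controls KLK5 was at 0.04 FPKM or less, and KLK8 was listed at 0. PLAT was at 0.08 to 0.31 FPKM over the MDA-MB-468 samples. KLK5, KLK8 and PLAT thus met the authors' filter only through the other line, and their line difference was partly fixed by it. Over all genes 32.7% were called higher in MDA-MB-468 and 31.4% lower.

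Serpins of other clades were measured for 5 of 22 genes. None was called in MDA-MB-468 cells by limma, where 2 had an unadjusted p under 0.05, against 25.1% of all genes. In MDA-MB-231 cells 1 rose, SERPINA3, an acute phase antichymotrypsin, from 1.25 to 1.73 FPKM to 5.64 to 8.63 FPKM (log2 difference 1.72, limma adjusted p = 0.0082), and this call was kept with each sample left out. Its change differed between the lines by -2.13 (limma adjusted p = 0.00058), and that of SERPINE2, a thrombin and urokinase inhibitor, by 1.05 (limma adjusted p = 0.0089). Of all 11529 genes, 275 were called higher in MDA-MB-231 KO, and 14.7% in the test between the lines. Between the controls SERPINA3 was higher in MDA-MB-468 cells, and the other 4 were called lower there. Over all genes these shares were 32.7% and 31.4%.

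Several clade B serpins are made in stratified epithelium, and 18 of 28 genes in a list for that tissue were measured. In MDA-MB-468 cells 1 rose in KO, the basal keratin KRT15, from 66.4 to 80.9 FPKM to 112 to 118 FPKM (log2 difference 0.59, limma adjusted p = 0.034). This call was lost under the replicate block (limma adjusted p = 0.053) and without any 1 of the 6 samples. The median difference of the list was 0.19, against 0.02 over all genes. It was above 0 for 10 of the 18 genes, against 6177 of 11529 genes. For the MDA-MB-231 line the list median was 0.108, against -0.006 over all genes. In MDA-MB-231 cells 3 rose: KRT15 by 1.25 (limma adjusted p = 0.0051), the cornified envelope gene PPL by 1.01 (limma adjusted p = 0.026) and the hemidesmosome integrin ITGB4 by 0.78 (limma adjusted p = 0.039). KRT15 kept its call with each sample left out, PPL only without KO sample 3, and ITGB4 lost it each time. Of all 11529 genes, 153 were called higher in MDA-MB-468 KO and 275 in MDA-MB-231 KO. SERPINB7 was lower in each of the MDA-MB-231 KO samples than in the controls. The KO change differed between the lines for 4 genes, PPL by -1.01, KRT15 by -0.66, IVL by -0.48 and SFN by 0.43 (limma adjusted p = 0.0049, 0.0064, 0.019 and 0.029). That test called 14.7% of all genes. PPL was listed at 0 in all MDA-MB-468 samples and IVL at 0 in all MDA-MB-231 samples. For these 2 the value is therefore the change in the other line alone. In MDA-MB-468 cells that change of IVL was not called (limma adjusted p = 0.059). The SFN call was lost under the replicate block (limma adjusted p = 0.079) and without any 1 of 5 samples, MDA-MB-468 control 1, MDA-MB-231 control 3 and the 3 MDA-MB-231 KO samples. Between the controls 13 were higher in MDA-MB-468 cells, led by S100A7 and KRT5, and 5 higher in MDA-MB-231 cells. Over all genes these shares were 32.7% and 31.4%. S100A7, KRT6A, KRT6B and DSC3, like IVL, were listed at 0 in all MDA-MB-231 samples, and KRT5 was at 0.24 FPKM or less. Such genes met the authors' filter only through the other line, so their line difference was partly fixed by it.

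The 5 genes whose values over the 12 samples were closest to SERPINB7, by the root mean square difference after each gene was centred on its own mean, were AC022596.6, OLR1, COL5A2, KRT6B and NKX1-2. Their differences from SERPINB7 were 0.377, 0.417, 0.443, 0.453 and 0.492 on the log2 scale. All 5 were low in both MDA-MB-231 groups, with group means of at most 0.19, and higher in KO than in control MDA-MB-468 cells by 0.68 to 1.14. Both traits follow from picking the genes by their likeness to SERPINB7. For KRT6B, at 0.68, MDA-MB-468 control (3.73 to 6.72 FPKM) and KO samples (6.55 to 11.3 FPKM) overlapped, and the change was not called (limma adjusted p = 0.19). In MDA-MB-231 cells their KO differences were -0.01 to 0.07, where that of SERPINB7 was -0.45. SERPINB5 was the most similar member, at 0.56, rank 13 of all genes, and SERPINB9 the least similar, at 3.66, rank 11388. By Pearson's r the 5 closest genes were POPDC3, KRT10, RBM42, FAM207A and STAC, and the measures shared 0 of 5 genes. Both lists are descriptions over the same 12 samples.

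**Figure D4:**
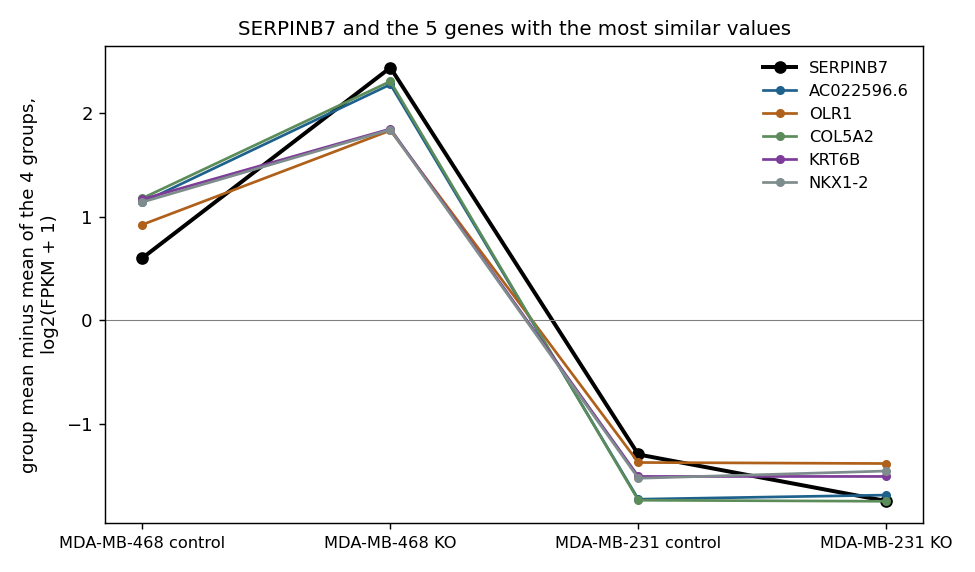
Group means of SERPINB7 and of the 5 genes closest to it, each on the log2(FPKM + 1) scale minus the mean of its 4 groups. The 6 lines share the high MDA-MB-468 KO value, and SERPINB7 has the steepest step from MDA-MB-468 control to KO.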

How the data were processed

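RNA-seq covered 12 samples, 3 control and 3 KO for each of the MDA-MB-231 and MDA-MB-468 lines. Per the labels and the study's methods, the authors trimmed reads, aligned them to hg19 with STAR, quantified genes with RSEM and removed genes with low or steady FPKM. The deposited log2 values equal log2(FPKM + 1). No counts were used, the sequencing depth is unknown, and the number of samples limits the precision. The value was converted back to FPKM where printed. Differences were fitted with limma 3.58.1 in R 4.3.3 over all 11529 genes (lmFit, eBayes), within each line, between the controls, and over all 12 samples for the difference between the lines. Genes were called at a Benjamini-Hochberg adjusted p under 0.05 and an absolute log2 difference over 0.5, the latter not asked of the difference between lines. The fits were tested on simulated data. The members, gene lists and motifs were chosen with earlier results of these data known. Named genes were all members, SMARCA4, flanking genes, the 5 genes most like SERPINB7, and at most 5 called genes per list and comparison, besides FURIN and marker genes, which were named after their values were seen. In MDA-MB-468, deviations of samples with equal replicate numbers correlated at 0.254, 0.161 and 0.119. Control 3 correlated more with KO 2 (0.131) than with KO 3 (0.119), so number 3 is not shown to be a pair. Equal numbers in MDA-MB-231 gave -0.054, 0.074 and -0.115. Gene positions and promoters came from GRCh37 with GENCODE release 44 lifted to it. Alternatives were another pseudocount, filter, variance trend, normalization, fold limit, block, joint fit, and each sample left out in turn.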

Additional observations from a re-analysis of the deposited data

Results flagged for a closer look

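The KO changes of SERPINB2 and SERPINB8 differed between the cell lines, in a test that called 14.7% of all genes. For SERPINB2 the MDA-MB-468 change exceeded the MDA-MB-231 change by 0.94 on the log2 scale (limma adjusted p = 0.046), and for SERPINB8 it was 0.60 (limma adjusted p = 0.029), both tested as an interaction over the 12 samples. The SERPINB2 call was lost without any 1 of 9 samples, with a pseudocount of 0.1 and after either rescaling, and the SERPINB8 call without any 1 of 5 samples and after quantile normalization. For SERPINB7 the difference was 2.30. All 3 MDA-MB-468 KO samples lay above their controls and all 3 MDA-MB-231 KO samples below theirs, and the difference was not tested, because the gene had been chosen by its increase in MDA-MB-468 cells. The SERPINB8 values may share reads with HMSD, and the part of these reads was not tested. Groups of 3 samples were not searched for outlying samples.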

How the results depend on the processing

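Over the 15 alternatives that could move the members' log2 differences, 294 values were computed, and the sign turned in 10, all for SERPINB1 or SERPINB6, whose differences were near 0. Without 1 sample SERPINB6 ran from -0.06 to 0.14 in MDA-MB-468 cells, from -0.03 to 0.23 in MDA-MB-231 cells and from -0.19 to 0.07 for the difference between lines. For that difference SERPINB1 ran from -0.13 to 0.25, and it was -0.04 after quantile normalization and -0.03 after 75th percentile scaling. Without 1 sample KDSR ran from -0.03 to 0.03 in MDA-MB-468 cells. The cause was not tested.

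In MDA-MB-468 cells 247 genes were called, against 424 with a filter on mean log2 values above 1, 537 in a fit of all 12 samples, 53 at a log2 limit of 1 and 0 to 474 without 1 sample. The labels also carry p numbers, of unknown meaning, that pair the MDA-MB-468 samples differently. Only p26 and p27 occur in both groups, and control p28 and KO p25, which have no partner, were put together as 1 block. A block made this way gave 0 genes called (2218 at an unadjusted p under 0.05), partly through a pair that the labels do not give. In the replicate block 241 genes were called, and 1 of the 6 members other than SERPINB7, SERPINB2, in place of 0.

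In MDA-MB-231 cells 426 genes were called, against 85 at a log2 limit of 1 and 99 to 311 without 1 sample. The replicate numbers share only a number there: the replicate block gave 0 genes called, with 3126 at an unadjusted p under 0.05, and no sample correlated above 0.1 with its own number. With a pseudocount of 0.1 or quantile normalization 1 member was called in place of 0. For the difference between lines 1699 genes were called, against 924 to 1897 without 1 sample, and 2 of the 6 members other than SERPINB7, against 0 to 4. With a pseudocount of 0.1 or quantile normalization 1 of the 6 was called. Between the controls 7395 genes were called, and 4150 at a log2 limit of 1, and 5 of the 6 other members, against 3 at that limit. Besides SERPINB2 in MDA-MB-468 cells and SERPINB5 in the difference between lines, the replicate block changed no call among the 6 members other than SERPINB7. The order of group means was the same on FPKM for 7 of 7 members, and the 5 genes closest to SERPINB7 shared 0 with those by Pearson's r. Without counts, the depth cannot show how far the low values of SERPINB5, SERPINB2 and SERPINB7 in MDA-MB-231 cells stand above 0.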
